A study of Mus musculus with 10 samples.

Results

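The cytosolic ribosomal protein genes of the mouse jejunum were compared between mice whose intestinal epithelium expressed the yeast enzyme NDI1 and littermates that did not. The genes were chosen by name alone, as rows of the gene table named Rpl or Rps with a number, Rplp0, Rplp1, Rplp2 or Rpsa, with their numbered or "l" paralogues. This gave 84 genes of 45707 rows, of which 52 carry an Rpl name and 32 an Rps name or the name Rpsa. By role they fall into 43 proteins of the large subunit, 3 proteins of its stalk (the P stalk), 30 proteins of the small subunit and 8 paralogues of one of the others. The name rule leaves out, among others, Rps3a1, Fau and Rack1, which also encode parts of the ribosome and are given separately. Of the 84 genes, 83 had at least 1 read and 81 passed the filter, a normalized count of 10 or more in 5 mice or more, as did 14301 genes in all. The 3 that did not pass were the paralogues Rpl3l, Rpl10l and Rpl39l.

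Jejunal RNA was sequenced from 5 mice of the genotype Vil-Cre and 5 of the genotype Vil-Cre:NDI1, 1 library per mouse. Both genotypes carried Vil-Cre, a Cre recombinase driven by the Villin promoter in intestinal epithelial cells, and the second also carried NDI1 behind a floxed stop sequence at the ROSA26 locus. NDI1, from budding yeast, oxidizes NADH in mitochondria as a homodimer. All mice were males of 8 to 12 weeks that had been fasted overnight for 16 to 18 h and given water by gavage, and tissue was taken 1 h later, so that the comparison asked whether NDI1 alone altered the jejunal transcriptome. The libraries held 10145705 to 12371530 reads on genes. The tissue holds the cells below the epithelium as well, and in such bulk RNA fewer cells of a type and less RNA per cell cannot be told apart. Of the 9 enterocyte markers looked at, 9 were detected, with 3.33% to 5.02% of reads in Vil-Cre and 4.48% to 5.51% in Vil-Cre:NDI1 mice. The NDI1 transcript had 0, 0, 1, 0 and 0 reads in Vil-Cre mice 1 to 5 whereas Vil-Cre:NDI1 mice 1 to 5 had 1002, 1505, 2659, 1423 and 1287, as the labels say.

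A ribosome contains 1 copy of nearly every ribosomal protein, and cells keep the proteins in balance although the genes are scattered over the genome. Many of the mRNAs begin with a C followed by an unbroken run of pyrimidines, the 5′ terminal oligopyrimidine (TOP) tract. This tract, read by the RNA-binding protein Larp1, couples their translation to the growth-controlling kinase complex mTORC1 and to nutrient supply. In the small intestine, where the epithelium is rebuilt within days, the making of ribosomes is most active in the dividing cells of the crypt. Sequencing of total mRNA does not measure control of translation through the tract.

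The 84 genes lay on 19 chromosomes in the GENCODE M21 annotation of GRCm38, with 14 on chromosome 7 and 4 on the X chromosome (Rpl10, Rpl36a, Rpl39 and Rps4x). In all, 83 were annotated as protein coding, and Rps4l, a single-exon gene on chromosome 6, as a transcribed processed pseudogene. Small nucleolar RNAs, which guide the chemical modification of ribosomal RNA, lay inside 29 of them, 56 in all. Another annotated gene overlapped 24 of them on the opposite strand and 6 on the same strand, and whether the counting used strand is not given in the sources used here.

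To show the tract itself, the bases around the annotated start were read from RefSeq promoter windows on GRCm38.p6, which matched 63 of the 84 genes with 75 windows. Each sequence below runs on the gene's own strand from 10 bases before the start, so that the start is base 11, and the longest run of C and T is in capitals. Rps6, Rps15a, Rps27 and Rplp2 are shown because their annotated start is a C within the run. Rpl7a and Rpl27a are shown because a long run covers a start placed within it, and Rps9, Rpl39, Rplp0 and Rpl22l1 because their values are described further on.
Rps6: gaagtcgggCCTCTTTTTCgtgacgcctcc
Rps15a: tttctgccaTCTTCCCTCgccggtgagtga
Rps27: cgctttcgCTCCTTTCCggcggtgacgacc
Rplp2: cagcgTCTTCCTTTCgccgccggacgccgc
Rpl7a: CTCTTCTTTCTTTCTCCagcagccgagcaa
Rpl27a: cgtgagCTCCTCCCTTTTCCCTTTCTgcca
Rps9: cttgTCTCTCTTTgtctcgggcctgagttc
Rpl39: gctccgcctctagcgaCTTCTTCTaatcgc
Rplp0: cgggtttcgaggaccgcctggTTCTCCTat
Rpl22l1: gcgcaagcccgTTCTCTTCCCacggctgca

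These stretches lie at chr4:86857348-86857377 (minus strand) for Rps6, chr7:118116128-118116157 (minus) for Rps15a, chr3:90213629-90213658 (minus) for Rps27, chr7:141447641-141447670 (plus) for Rplp2, chr2:26910797-26910826 (plus) for Rpl7a and chr7:109519185-109519214 (plus) for Rpl27a. Those of the other four lie at chr7:3704031-3704060 (plus) for Rps9, chrX:37085203-37085232 (minus) for Rpl39, chr5:115559457-115559486 (plus) for Rplp0 and chr3:28805498-28805527 (plus) for Rpl22l1. A C at the annotated start followed by at least 4 pyrimidines was present in 13 of the 75 windows (17.3%) and in 2.51% of all 32851 windows. The 13 genes were Rpl14, Rpl15, Rpl28, Rpl35, Rpl35a, Rpl38, Rplp2, Rps6, Rps10, Rps15a, Rps18, Rps21 and Rps27. An annotated start that is a few bases off would break this match. In Rpl7a and Rpl27a above the annotated start is a T within the run, and whether it is misplaced was not tested. A run of at least 8 pyrimidines within 50 bases of the start, on the gene's strand, was found in 59 of the 75 windows (78.7%) and in 35.7% of all windows.

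In the windows of 300 bases, from 250 before the start, the letters CCGGAA, the core that ETS factors bind, stood on either strand in 35 of the 75 (46.7%) and in 14.9% of all windows. The letters AAGATGGC, which the factor YY1 binds, stood on either strand in 8 windows (10.7%) against 2.75% of all. The letters TATAAA stood on the gene's strand before the start in 2 windows (2.67%) against 7.59% of all. These are matches of letters, and binding was not measured here.

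No ribosomal protein gene differed between the genotypes in the test across all genes. Of 81 tested, 0 passed an adjusted p of 0.05 in limma, where 1 of all 14301 genes (0.00699%), NDI1, did. At an unadjusted p under 0.05 the count was 0 of 81 as well, where 4.24% of all genes passed. Tests on the recovered reads with edgeR and with DESeq2 called 0 members too, with 0 at an unadjusted p under 0.05 in each. The normalized counts of the genotypes overlapped for all 81, where they did not overlap for 0.699% of all genes. The log2 fold changes of Vil-Cre:NDI1 over Vil-Cre mice, on the log2(normalized count + 1) scale, had a median of -0.017 over the 81 genes, 0.0052 over all genes and 0.061 over the other genes with a mean of at least 1000, and ran from -0.12 (Rplp2) to 0.11 (Rpl39).

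The intervals show how narrowly the data bound a change at the deposited scaling, which they take as exact. With libraries scaled to equal totals the median log2 fold change of the 81 genes was -0.080, as described further on. Limma's 95% confidence interval stayed within a 1.25-fold change in either direction for 80 of the 81 genes (98.8%), against 20.1% of all genes and 43.6% of the other genes with a mean of at least 1000 normalized counts. The exception was Rps4l, at -0.12 with an interval from -0.45 to 0.22, and its interval also stayed within 2-fold. By role, 15 of 43 large subunit genes had a value above 0 and 28 below, with a median of -0.0044, and 6 of 30 small subunit genes had a value above 0 and 24 below, with a median of -0.023. None of these passed the test singly, and a count of signs over genes that vary together by mouse carries no test.

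**Figure D1:**
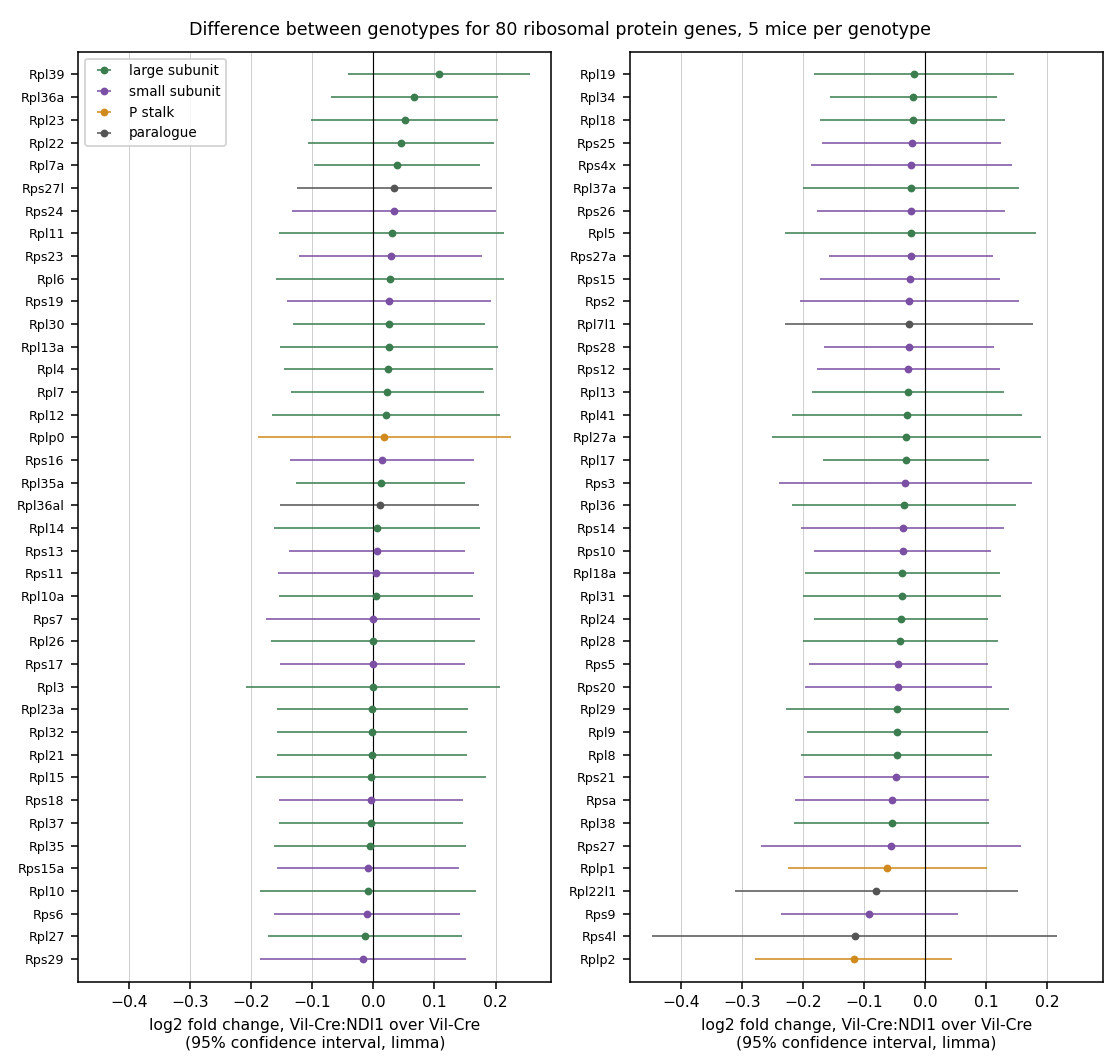
Log2 fold change of Vil-Cre:NDI1 over Vil-Cre mice for 80 of the 81 tested ribosomal protein genes, ordered by value, with points for the estimate, bars for the 95% confidence interval of limma (5 mice per genotype) and colours for the role. Every interval crosses 0, and the widest is that of Rps4l, from -0.45 to 0.22.

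The 5 genes with the smallest limma p were Rplp2, Rpl39, Rps9, Rpl36a and Rplp1, in that order. Rplp2, one of the acidic stalk proteins that call elongation factors to the ribosome, had normalized counts of 3006, 2810, 3251, 2659 and 2835 in Vil-Cre mice 1 to 5 and of 2647, 2712, 2639, 2540 and 2869 in Vil-Cre:NDI1 mice 1 to 5. Vil-Cre mice 2, 4 and 5 lay within the range of the Vil-Cre:NDI1 mice and mice 1 and 3 above it, and the mean was 2912 ± 226 (SD, n = 5) against 2681 ± 121 (SD, n = 5). Its log2 fold change of -0.12 ± 0.074 (SE) had an unadjusted limma p of 0.14 and an adjusted p of 0.998 (exact permutation p = 0.0873, two-sided).

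Rps9, a protein of the small subunit near the entry of the mRNA channel, had counts of 6641, 6456, 6219, 6001 and 6389 in Vil-Cre and 6086, 6104, 6055, 5812 and 5686 in Vil-Cre:NDI1 mice. Only Vil-Cre mouse 4 fell into the range of the Vil-Cre:NDI1 mice. Its exact permutation p of 0.0317 (two-sided, unadjusted) was the lowest of the 81 and the only one under 0.05, while limma gave a log2 fold change of -0.092 ± 0.066 (SE) with an unadjusted p of 0.19 and an adjusted p of 0.998. The smallest p that 5 mice against 5 allow in the exact test is 0.00794.

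Rpl39, a small protein lining the tunnel through which the new peptide leaves, had counts of 1803, 1776, 1561, 1605 and 1739 in Vil-Cre and 1770, 1924, 1822, 1767 and 1843 in Vil-Cre:NDI1 mice. Vil-Cre mice 3, 4 and 5 lay below and mice 1 and 2 among the Vil-Cre:NDI1 values, and the log2 fold change was 0.11 ± 0.068 (SE), with an adjusted limma p of 0.998. Reads of Rpl39 may be shared with a near-identical copy, since the row named as its pseudogene held a mean of 254 normalized counts, 14.4% of the 1761 of Rpl39. Rpl36a, a large subunit protein encoded on the X chromosome, had a mean of 1780 ± 66.9 (SD, n = 5) in Vil-Cre against 1864 ± 69.0 (SD, n = 5) in Vil-Cre:NDI1 mice, with a log2 fold change of 0.067 and an adjusted limma p of 0.998.

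The other stalk proteins are Rplp1, the partner of Rplp2, and Rplp0, the base that holds both on the ribosome. Rplp1 had a mean of 6297 ± 289 (SD, n = 5) in Vil-Cre against 6038 ± 386 (SD, n = 5) in Vil-Cre:NDI1 mice, a log2 fold change of -0.062 ± 0.074 (SE). Rplp0 is often used as a reference gene in RT-qPCR. Its counts were 12064, 10878, 8911, 10339 and 11445 in Vil-Cre and 11627, 10520, 10628, 10986 and 10308 in Vil-Cre:NDI1 mice, so that the Vil-Cre mice spanned both the highest and the lowest value. Its SD within genotypes, 0.13 on the log2 scale, was above the member median, and its log2 fold change was 0.018 with an interval from -0.19 to 0.22.

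Rpl5 and Rpl11 form, with the smallest RNA of the large subunit, the particle that binds Mdm2 and so stabilizes p53 when ribosome assembly fails. Rpl5 lay between 3022 and 3729 in Vil-Cre and between 2899 and 3817 in Vil-Cre:NDI1 mice, and Rpl11 between 4005 and 4951 and between 3993 and 4932. Both were lowest in Vil-Cre mouse 3 among the Vil-Cre mice and in Vil-Cre:NDI1 mouse 5 among the others, and their log2 fold changes were -0.024 and 0.030. Rpl4 and Rpl17, which like Rpl39 line the exit tunnel, had log2 fold changes of 0.025 and -0.031, and Rpl17 was among the 3 steadiest members, with counts from 3661 to 4029 over all 10 mice.

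Among small subunit proteins, Rps6, the classical substrate of the S6 kinases downstream of mTORC1, had a mean of 6013 ± 165 (SD, n = 5) in Vil-Cre against 5976 ± 350 (SD, n = 5) in Vil-Cre:NDI1 mice, a log2 fold change of -0.011 with an interval from -0.16 to 0.14. Rps19, the gene most often mutated in Diamond-Blackfan anaemia, had a mean of 2903 ± 258 (SD, n = 5) and 2947 ± 91.1 (SD, n = 5). Rpsa, also known as a laminin receptor, had 7052 ± 365 (SD, n = 5) and 6793 ± 338 (SD, n = 5), a log2 fold change of -0.054. Rps27a, made as a fusion with ubiquitin, had 2697 ± 110 (SD, n = 5) and 2651 ± 54.8 (SD, n = 5) and stood among the 3 steadiest members with Rpl7a and Rpl17. The genotypes overlapped for each of these genes, and each had an adjusted limma p of 0.998.

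Per kb of merged exons, the levels of the 81 genes spanned 72.6-fold, and 39.9-fold without the paralogues. The quartiles were 2011 and 5365 normalized counts per kb, around a median of 3691, and 59 lay within 2-fold of it. The highest were Rplp1 with 12360 per kb, Rpl41, the smallest ribosomal protein, with 10664 and Rplp0 with 7931. Rplp1 and Rpl41 change places when the longest transcript is used as the length (12360 against 13156 per kb), so their order depends on the annotation. In the order by merged exons the next were Rps12 with 7573, Rpl13 with 7528 and Rps18 with 7285 per kb. Of the 10 highest genes, 9 were the same by either length.

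**Figure D2:**
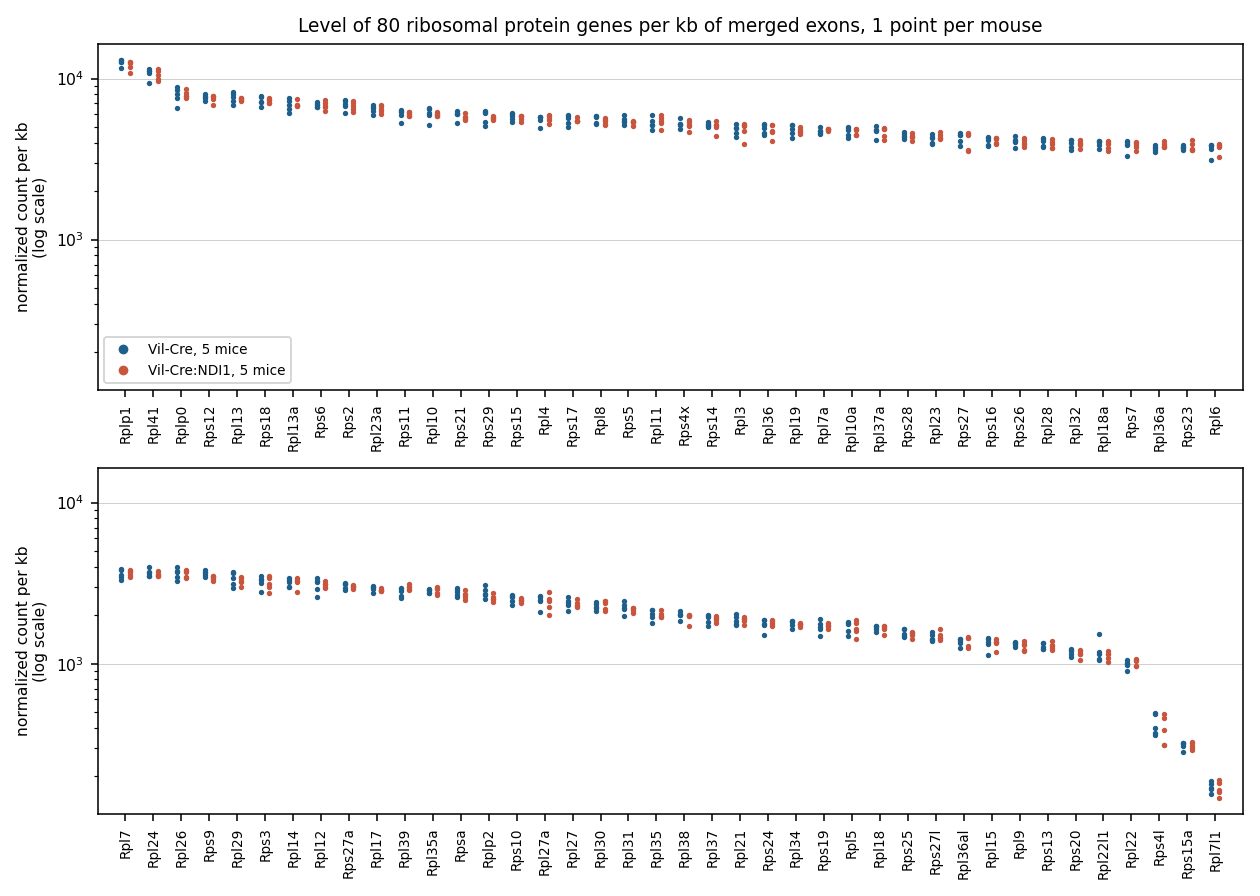
Normalized count per kb of merged exons (log scale) for 80 of the 81 tested ribosomal protein genes in descending order, 1 point per mouse, Vil-Cre in blue and Vil-Cre:NDI1 in red (5 mice each). Rplp1 and Rpl41 stand highest at 12360 and 10664 on average, and the points of the genotypes overlap for every gene.

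The lowest were Rpl7l1 with 170 per kb, Rps15a with 310 and Rps4l with 407. The low value of Rps15a came with a merged exon length of 5395 bases, the longest of the members against a median of 975, so its place rests on the annotated length. Its counts lay between 1524 and 1751 in the 10 mice. Rps20, with 1165 per kb over 3706 bases, is another such case, chosen after its values were seen.

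The paralogues were compared with their partners as a ratio within each mouse, in which gene length cancels between mice. Rpl36al, an intronless copy, had counts close to those of Rpl36a, with a log2 ratio of 0.058 ± 0.073 (SD, n = 5) in Vil-Cre against 0.0013 ± 0.097 (SD, n = 5) in Vil-Cre:NDI1 mice, though its longer transcript puts it at 36.5% of its partner per kb. Rps27l, a target of p53, stood at a log2 ratio to Rps27 of -1.23 ± 0.17 (SD, n = 5) and -1.14 ± 0.26 (SD, n = 5), and at 35.0% of it per kb. Rpl22l1, which Rpl22 is known to repress, stood at -1.62 ± 0.23 (SD, n = 5) and -1.74 ± 0.11 (SD, n = 5) relative to Rpl22, but at 115% of it per kb, since the merged exons of Rpl22 are 2065 bases long and those of Rpl22l1 561. Rpl7l1 stood at -2.96 ± 0.079 (SD, n = 5) and -3.01 ± 0.18 (SD, n = 5) relative to Rpl7, and at 4.68% of it per kb. In each of these pairs the ratios of the genotypes overlapped.

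The highest ratios came from mice of either genotype. For Rps27l over Rps27, Vil-Cre mouse 3 (-0.95) and Vil-Cre:NDI1 mice 4 (-0.81) and 5 (-0.91) were highest. For Rpl22l1 over Rpl22, Vil-Cre mouse 1 was highest at -1.29, where the other Vil-Cre mice lay between -1.87 and -1.49. Rps4l had a log2 ratio to Rps4x from -4.02 to -3.37 in Vil-Cre mice, and Vil-Cre:NDI1 mice ranged from -4.15 to -3.31, the widest range of the pairs, and as a processed copy it may share reads with Rps4x.

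**Figure D3:**
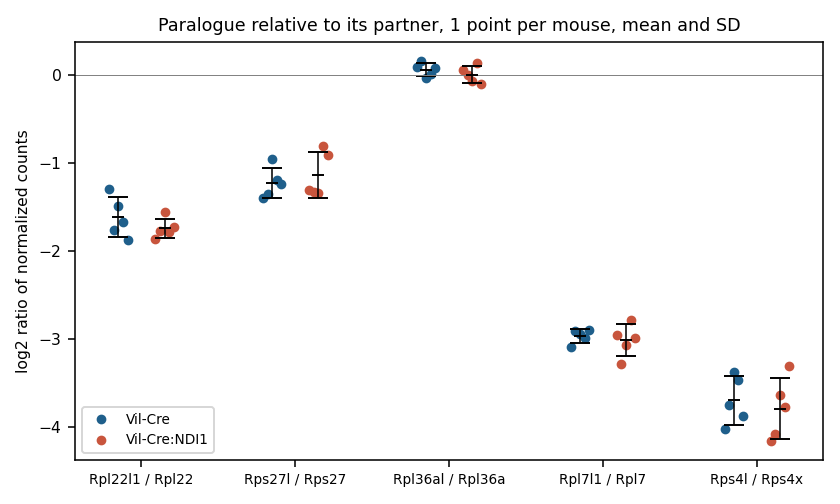
Log2 ratio of the normalized counts of a paralogue to its partner for the 5 pairs with both genes tested, 1 point per mouse, Vil-Cre in blue and Vil-Cre:NDI1 in red, with the mean and SD of 5 mice in black. The ratios run from about 0 for Rpl36al to a mean of -3.69 and -3.79 for Rps4l, and those of the genotypes overlap in each pair.

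Paralogues known from heart and muscle or from the male germ line were nearly silent. Rpl3l, known from striated muscle, had 7 reads in all 10 libraries, in Vil-Cre mice 4 and 5 and Vil-Cre:NDI1 mice 3 and 5. Rpl39l, known from testis, had 4 reads, all in Vil-Cre mouse 2. Rpl10l, an intronless copy of Rpl10 known from spermatogenesis, had 0 reads in all 10 libraries, which allows up to 3 in a library, while Rpl10 itself had 4627 to 6340 reads per library.

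The genes varied little between mice of one genotype. The median SD within genotypes of log2(normalized count + 1) was 0.083, a 1.06-fold spread, against 0.29 (1.22-fold) over all genes tested. Since highly expressed genes vary less, the 2091 other genes with a mean of at least 1000 normalized counts serve as the closer comparison, and their median spread was 1.13-fold. Of these, 107 (5.12%) had an SD below the member median. The SD was under 0.1 for 61 of the 81 genes and at least 0.15 for 4, and the coefficient of variation within genotypes ran from 2.89% to 17.6% with a median of 5.70%.

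The 3 steadiest genes were Rpl7a, with an SD of 0.042, Rpl17, with 0.044, and Rps27a, with 0.047. Rpl7a, a large subunit protein whose introns hold 3 small nucleolar RNAs, had counts of 4546, 4175, 4108, 4332 and 4336 in Vil-Cre and 4469, 4437, 4444, 4345 and 4367 in Vil-Cre:NDI1 mice. The Vil-Cre:NDI1 mice all lay within the range of the Vil-Cre mice. The 3 most variable were Rps4l, with an SD of 0.26, Rpl22l1, with 0.16, and Rpl27a, with 0.16. Rpl27a, a large subunit protein, had counts of 2984, 3052, 2420, 2842 and 2884 in Vil-Cre and 3222, 2615, 2922, 2847 and 2316 in Vil-Cre:NDI1 mice, lowest in Vil-Cre mouse 3 and Vil-Cre:NDI1 mouse 5. The 13 genes with a tract at the annotated start had a median SD of 0.080 and the 47 tested genes with a window and without such a start 0.085, with median log2 fold changes of -0.011 and -0.013.

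**Figure D4:**
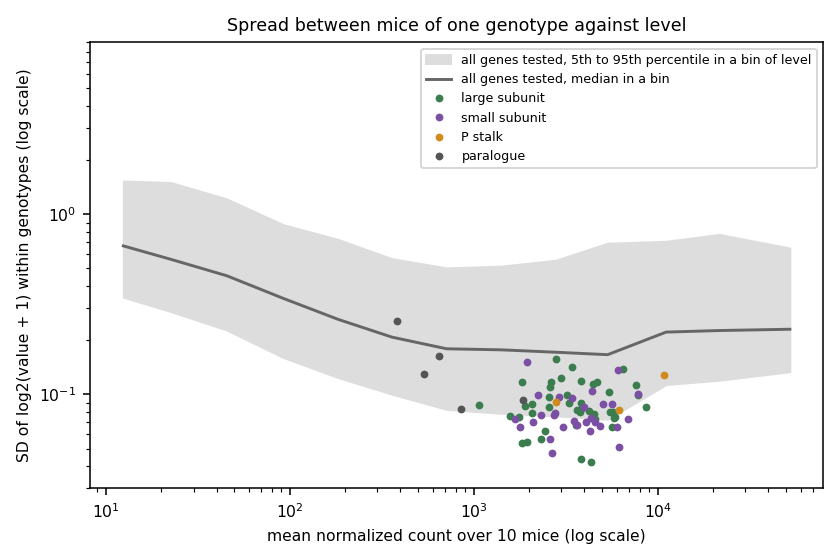
SD of log2(normalized count + 1) within genotypes against the mean normalized count over 10 mice (both axes log scale) for 80 of the 81 tested ribosomal protein genes, coloured by role, over the median (line) and the 5th to 95th percentile (grey band) of all genes tested in bins of level. All points other than Rps4l lie below the line of the median, and the steadiest, Rpl7a, is at 0.042.

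The genes moved up and down together from mouse to mouse. In Vil-Cre mouse 1, 70 of the 81 genes lay above their own genotype median and in mouse 5 it was 48, while the count was 30 in mouse 2, 8 in mouse 3 and 6 in mouse 4. In Vil-Cre:NDI1 mice 1 to 5 the counts were 63, 31, 38, 11 and 19. At most 2 of 5 mice can lie above a genotype median. The share of the 81 genes above it ran from 7.41% (Vil-Cre mouse 4) to 86.4% (Vil-Cre mouse 1). By mouse, that share ran from 36.7% to 42.8% over all genes and from 25.8% to 58.9% over genes with a mean of at least 1000. The median deviation from the genotype mean, on the log2 scale, was 0.078, 0.027, -0.098, -0.052 and 0.049 in Vil-Cre mice 1 to 5 and 0.057, 0.017, 0.026, -0.039 and -0.053 in Vil-Cre:NDI1 mice 1 to 5. Over all genes the same median stayed between -0.00044 and 0.011, but the scaling of the libraries sets it near 0 in advance. Over genes with a mean of at least 1000 it ran from -0.087 (Vil-Cre mouse 5) to 0.083 (Vil-Cre:NDI1 mouse 5). The profile averaged over the genes held 34.4% of their variance within genotypes, against 0.146% for all genes and 2.68% for genes with a mean of at least 1000. The scaling also holds the share for all genes low. For the 77 mitochondrial ribosomal protein genes, a list of similar length, it held 2.79%. In shorter lists it held 21.3% for the ribosome biogenesis genes, 25.6% for the translation factors, 31.1% for the enterocyte, 46.3% for the crypt and 92.6% for the smooth muscle markers. Even unrelated genes give a larger share in a shorter list, so shares of lists of unlike length cannot be compared directly.

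Large and small subunit genes followed the same mice. Of 43 large subunit genes, 38 lay above the genotype median in Vil-Cre mouse 1 and 3 in mouse 3, and of 30 small subunit genes 27 and 1. Over all genes the shares above it in these mice were 36.8% and 40.9%. The ratio of summed normalized counts of Rpl to Rps names was 1.55 ± 0.017 (SD, n = 5) in Vil-Cre against 1.57 ± 0.016 (SD, n = 5) in Vil-Cre:NDI1 mice, with the genotypes overlapping. Some genes went against the rest. In Vil-Cre mouse 3, Rps4l was 0.22, Rplp2 0.16 and Rps27l 0.11 above their genotype means. In Vil-Cre:NDI1 mouse 5, Rps4l was 0.33, Rpl41 0.13, Rpl36 0.11 and Rpl28 0.11 above theirs. Rpl36 and Rpl28 were chosen here after their values were seen.

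**Figure D5:**
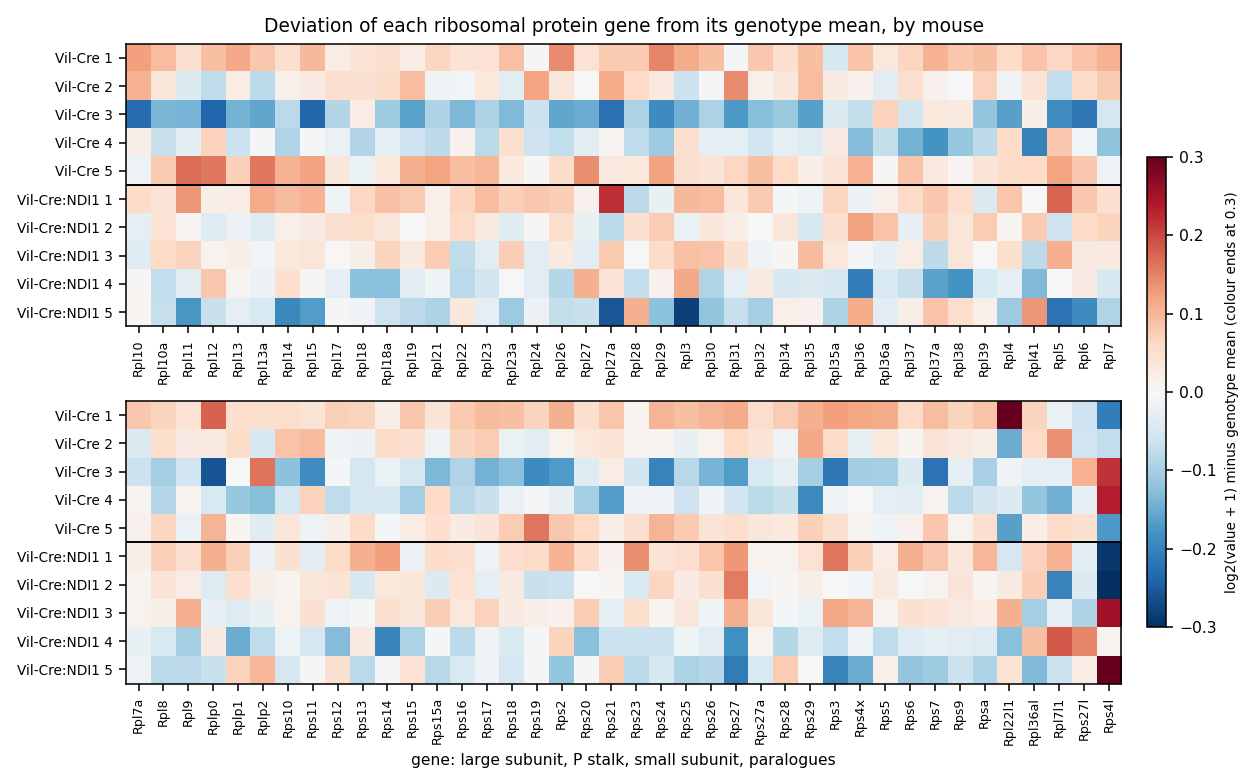
Deviation of log2(normalized count + 1) from the mean of the genotype for 80 of the 81 tested ribosomal protein genes (columns, ordered by role) in each of 10 mice (rows, a black line between the genotypes), with colours that end at 0.3 in either direction. Vil-Cre mouse 1 is mostly red and mouse 3 mostly blue, and Vil-Cre:NDI1 mice 4 and 5 are mostly blue. Of the 81 tested genes, 70 (86.4%) and 8 (9.88%) lay above their genotype median in Vil-Cre mice 1 and 3, against 36.8% and 40.9% of all genes.

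Other measures of the tissue also differed between these mice, and their part in the shared movement was not tested. The median deviation of the 35 ribosome biogenesis genes was 0.11, 0.020, -0.22, -0.099 and 0.17 in Vil-Cre mice 1 to 5 and 0.021, -0.028, 0.043, 0.17 and -0.13 in Vil-Cre:NDI1 mice 1 to 5. The 9 enterocyte markers deviated by a median of 0.060, -0.013, 0.20, 0.21 and -0.41 in Vil-Cre and 0.047, 0.030, -0.077, -0.26 and 0.19 in Vil-Cre:NDI1 mice. The 8 markers of crypt and dividing cells deviated by 0.079, -0.30, -0.16, 0.092 and 0.44 and by 0.043, -0.28, 0.013, 0.62 and -0.49. Vil-Cre mouse 3 also had the largest share of reads on mitochondrially encoded genes, 6.64%, where the other 9 mice had 4.69% to 6.19%.

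Summed over the 84 genes, ribosomal protein mRNA took 2.98%, 2.82%, 2.57%, 2.70% and 3.15% of reads in Vil-Cre mice 1 to 5 and 2.86%, 2.73%, 2.81%, 2.65% and 2.43% in Vil-Cre:NDI1 mice 1 to 5. The highest value was in a Vil-Cre and the lowest in a Vil-Cre:NDI1 mouse, and the genotypes overlapped from 2.57% to 2.86%. Vil-Cre mice 1 and 5 lay above every Vil-Cre:NDI1 mouse, while Vil-Cre:NDI1 mouse 5 lay below every Vil-Cre mouse. The means, Vil-Cre first, were 2.84% ± 0.229 (SD, n = 5) and 2.70% ± 0.168 (SD, n = 5). A sum over the members was given no test. Genes with an Rpl name took 1.73% and 1.65% of reads on average, those with an Rps name or Rpsa 1.11% and 1.05%, and the 3 stalk genes among the former 0.184% and 0.172%. The rows named as processed pseudogenes of members, 258 in all, added 0.00867% to 0.0122% of reads.

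A share of reads depends on what else was sequenced. The 20 highest genes took 9.83% to 13.3% of reads in Vil-Cre and 11.3% to 13.4% in Vil-Cre:NDI1 mice, with means of 11.6% and 12.4%, and Vil-Cre mouse 5, with the lowest share of these, had the highest share of ribosomal protein mRNA. With libraries scaled to equal totals, the median log2 fold change of the 81 genes was -0.080, where that of all genes was -0.057, and relative to all genes it was -0.023 against -0.022 in the deposited scaling. At that scaling, Rplp2 had an unadjusted limma p under 0.05 and no member passed the adjusted threshold.

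Markers of other cell types were lower or higher in one genotype without passing the test. The 4 goblet cell markers all had a log2 fold change below 0, with 0 of 4 called, and took 0.626% to 0.824% of reads in Vil-Cre and 0.437% to 0.682% in Vil-Cre:NDI1 mice. The 9 enterocyte markers all had a value above 0, with 0 of 9 called. Of all 14301 genes tested, 7319 had a value above 0 and 6982 below. Of the 2091 genes with a mean of at least 1000 other than ribosomal protein genes, 1519 had a value above 0 and 572 below. Of the B and plasma cell markers 5 of 7 were tested, all with a value below 0 and 0 called, with 0.103% to 0.223% of reads in Vil-Cre and 0.0820% to 0.316% in Vil-Cre:NDI1 mice. Paneth, T cell, smooth muscle, crypt and adipocyte markers also had 0 called, on 4 of 4, 6 of 6, 5 of 5, 8 of 8 and 4 of 5 tested. Their part in the values of the ribosomal protein genes was not tested.

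The ribosomal genes Rps3a1, Fau and Rack1, outside the name rule, were looked at beside the members. Rps3a1 encodes a small subunit protein, Fau a fusion of a ribosomal protein with a ubiquitin-like protein, and Rack1 a scaffold on the small subunit. Their log2 fold changes ran from -0.015 (Rps3a1) to 0.0034 (Fau), with 0 of 3 called. With these genes included, the share of reads was 3.02% ± 0.236 (SD, n = 5) in Vil-Cre against 2.86% ± 0.175 (SD, n = 5) in Vil-Cre:NDI1 mice.

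Of 19 translation factors and other mRNAs known to start with a pyrimidine tract, 0 were called, 9 had a log2 fold change above 0 and 10 below, and the median was -0.00096. The 2 with the smallest p were Nap1l1, a histone chaperone, with -0.25, and Eif3k, a subunit of an initiation factor, with -0.086. Of 35 ribosome biogenesis genes, 0 were called and 1 had an unadjusted limma p under 0.05, against 4.24% of all genes. That gene was Sbds, which helps to release Eif6 from the new large subunit, with 883 ± 56.4 (SD, n = 5) in Vil-Cre against 1023 ± 83.2 (SD, n = 5) in Vil-Cre:NDI1 mice. The log2 fold change of 0.21 missed the adjusted threshold in limma, and Eif6 itself followed with 0.15.

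Of 15 genes of mTORC1 and its control over ribosomal protein synthesis, 0 were called. An unadjusted limma p under 0.05 was found for 1, against 4.24% of all genes. It was Mtor, the kinase itself, with 641 ± 112 (SD, n = 5) in Vil-Cre against 433 ± 83.0 (SD, n = 5) in Vil-Cre:NDI1 mice, a log2 fold change of -0.57 with an adjusted limma p of 0.998. DESeq2 on the 8 libraries other than Vil-Cre 3 and 4, chosen after seeing the data, put it past the threshold. There its log2 fold change was -0.63 and its adjusted p 0.0223, and 276 of 25537 genes were called. On the same libraries edgeR gave Mtor an adjusted p of 0.41. All alternatives other than DESeq2 on 8 libraries gave it 0.0847 to 0.9998, lowest in DESeq2 on 10 libraries. Eif4g1, an initiation factor scaffold, was second, with 0.072. Of 77 mitochondrial ribosomal protein genes, which build a separate ribosome inside the organelle that NDI1 enters, 0 were called, 49 had a value above 0 and 28 below, and 2 passed an unadjusted limma p under 0.05. Those were Mrpl16, with -0.36, and Mrpl44, with -0.32, and the median of the 77 was 0.032. Their median SD within genotypes was 0.19, against 0.083 for the cytosolic genes, at lower counts.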

How the data were processed

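Reads were trimmed, aligned by STAR to a GRCm38 genome that included NDI1, assigned to genes with Salmon and scaled with DESeq2 by the authors. The annotation release and strand setting are not given in the sources used here. The deposited values are a signal, normalized counts per gene, that is whole reads divided by a size factor. In all 10 libraries 100% of values were whole multiples of 1 read, with size factors of 0.852 to 1.098, but the step of Vil-Cre 3 and 4 is too near to 1 to decide. Reads on genes were 10145705 to 12371530 per library, and floors and shares cover counting error only.

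The genotypes were compared with limma 3.58.1 in R 4.3.3 (eBayes with a variance trend) on log2(value + 1), restricted to the 14301 genes that reached a value of 10 in 5 or more mice. P-values were adjusted over these by Benjamini-Hochberg, with 0.05 as threshold, and two-sided exact permutation tests enumerated the 252 ways to split the mice. edgeR 4.0.16 and DESeq2 1.42.0 served as alternatives on recovered reads, and the tests were tried on simulated data. Lengths are merged exons of the GENCODE M21 basic annotation. In the full M21 annotation 45143 of the identifiers were found. Promoter sequences are RefSeq's. The members, the gene lists and the rule for named genes (the 5 smallest p, the 3 highest and lowest per kb, the 3 most and least variable, paralogue pairs, members with well known roles and the 2 smallest p of each list) were chosen with earlier results of these data known. Nothing in the labels says that mice of one genotype came from separate litters, so p-values measure the spread between these mice. No 2 libraries of the same genotype were alike within sampling noise (chi-square per gene at least 13.0), and pairs across genotypes were not compared. Results that need certain genes are not reported here, and the plots leave out 1 tested member, which stays in the counts and medians.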

Additional observations from a re-analysis of the deposited data

Results flagged for a closer look

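Of 94 groups of 5 values looked at for a mouse far from the other mice of its genotype, 2 had one, where chance gives about 4.7. Rpl22l1 stood at 855 normalized counts in Vil-Cre mouse 1, where the other Vil-Cre mice lay between 593 and 659. Rpl41 stood at 6705 normalized counts in Vil-Cre mouse 4, where the others lay between 7810 and 8188.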

How the results depend on the processing

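Over 22 settings, the count of ribosomal protein genes called between the genotypes was 0 in each, with the lowest adjusted p of a member, 0.28 (Rps9), in DESeq2 on the 8 libraries other than Vil-Cre 3 and 4. That setting, chosen after seeing the data, gave 3 members an unadjusted p under 0.05, and equal totals gave 1. Over all genes the count moved from 1 to 31 with DESeq2, 276 with DESeq2 on 8 libraries, 2 with a minimum value of 50, and 1 to 3 when single mice were left out, the 3 without Vil-Cre:NDI1 mouse 5. The numbers of the mice do not pair them, since same-numbered mice correlated at -0.12 to 0.14 and 2 of 10 mice correlated best with their own number. With the replicate number as a block, 0 members and 1 gene in all were called, and 529 in place of 606 genes had an unadjusted p under 0.05. The median log2 fold change of the members was -0.080 with equal totals and -0.082 with equal totals of other genes, against -0.017. It ran from -0.042 to 0.0030 when single mice were left out, above 0 without Vil-Cre mouse 1 and without Vil-Cre:NDI1 mouse 5. The summed share of reads was 3.21% (Vil-Cre) and 3.08% (Vil-Cre:NDI1) of a total without the 20 highest genes. A planned share with further ribosomal genes was run with Rps3a1, Fau and Rack1 in place of the planned list, a choice made after seeing the data.

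Of the 40 single genes followed, 23 changed sign in some setting, at values near 0. With equal totals the log2 fold changes were -0.059 (Fau), -0.033 (Rpl11), -0.018 (Rpl22), -0.052 (Rpl36al), -0.038 (Rpl4), -0.040 (Rpl7), -0.024 (Rpl7a), -0.045 (Rplp0), -0.037 (Rps19) and -0.028 (Rps27l). With equal totals of other genes they were -0.062 (Fau), -0.035 (Rpl11), -0.020 (Rpl22), -0.054 (Rpl36al), -0.040 (Rpl4), -0.042 (Rpl7), -0.027 (Rpl7a), -0.047 (Rplp0), -0.039 (Rps19) and -0.031 (Rps27l). DESeq2 on 8 libraries gave -0.026 (Rpl11), -0.035 (Rpl36al), -0.0095 (Rpl4), -0.034 (Rpl7), -0.084 (Rplp0), -0.041 (Rps19) and 0.057 (Rps4l). On the same libraries edgeR gave -0.032 (Rpl11), -0.0014 (Rpl22), -0.041 (Rpl36al), -0.016 (Rpl4), -0.041 (Rpl7), -0.090 (Rplp0), -0.047 (Rps19) and 0.050 (Rps4l). On 10 libraries DESeq2 gave 0.0035 (Rpl3), and edgeR -0.0052 (Fau) and -0.00015 (Rplp0). When single mice were left out, the values ran from -0.032 to 0.063 (Fau), -0.043 to 0.031 (Rack1), -0.067 to 0.021 (Rpl10), -0.0048 to 0.073 (Rpl11), -0.12 to 0.011 (Rpl22l1), -0.087 to 0.033 (Rpl27a), -0.037 to 0.069 (Rpl3), -0.019 to 0.044 (Rpl36al), -0.016 to 0.052 (Rpl4), -0.080 to 0.0036 (Rpl41), -0.070 to 0.032 (Rpl5), -0.0077 to 0.049 (Rpl7), -0.073 to 0.023 (Rpl7l1), -0.047 to 0.062 (Rplp0), -0.042 to 0.012 (Rps15a), -0.021 to 0.066 (Rps19), -0.0024 to 0.061 (Rps27l), -0.041 to 0.0037 (Rps3a1), -0.049 to 0.015 (Rps4x) and -0.037 to 0.019 (Rps6). The cause of these changes was not tested. Of the 40 genes, only Mtor, named in the report, passed the threshold in some setting. That was DESeq2 on 8 libraries, where 276 genes in all were called.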
